A study of Homo sapiens with 4 samples.

Results

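The core machinery that places, removes and reads N6-methyladenosine (m6A) on mRNA was followed through 4 RNA-seq libraries of HCT116 cells, a human colorectal cancer line. The members were chosen by name as 6 subunits of the nuclear writer complex (METTL3, METTL14, WTAP, VIRMA, ZC3H13 and RBM15), both known erasers (FTO and ALKBH5) and 2 cytoplasmic readers (YTHDF1 and YTHDF2). All 10 were found among the 58735 Ensembl genes listed, and all 10 passed the filter (a mean over the libraries of 1 FPKM or more), as did 14523 genes in all. FPKM is the number of fragments scaled to the length of the gene's exons and to the depth of the library. In the study, METTL3 and YTHDF2 were placed upstream of the kinesin gene KIF26B, and the libraries were made to profile cells depleted of KIF26B. Here they are read for the machinery's own RNA, a question the study did not put to them. The 2 control libraries came from cells transfected with a control siRNA and the other 2 from cells transfected with siRNA against KIF26B, each for 48 h and all in unmodified HCT116 cells. The labels do not say which KIF26B siRNA went into which library, and the study used 2 of them elsewhere. The headers of the 2 libraries labelled KIF26B siRNA (K_KD1_2 and K_KD2) differ in form, which does not settle it. A difference between these 2 libraries therefore cannot be told apart from a difference in siRNA. Nor do the labels say whether the libraries of a group came from separate cultures. The p-values thus measure only the spread between the libraries of a group, which may be technical.

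METTL3 is the catalytic subunit of the writer and works as a dimer with METTL14, which helps to hold the RNA. WTAP, VIRMA and ZC3H13 form the regulatory part of the complex, and RBM15 or its paralog RBM15B brings it to its RNA targets. FTO and ALKBH5 are oxygenases that take the methyl group off again, and the YTHDF proteins bind m6A in the cytoplasm, where YTHDF2 is known for directing the bound mRNA to decay. RNA-seq measures the RNA of these genes, not the methyl mark or the proteins.

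The sequences just upstream of the annotated starts of METTL3, METTL14, RBM15 and YTHDF2 are shown because the first 3 encode partners in a single complex whose RNA levels separated in these libraries and the last is the reader the study turned to. They are the RefSeq reference of build GRCh38.p14, read 5′ to 3′ on the strand of the gene, and capitals mark CCGGAA or its reverse complement TTCCGG (the core letters bound by ETS factors) and CCAAT or ATTGG (the CCAAT box). The first lies at chr14:21511341-21511590 on the minus strand, the second at chr4:118685142-118685391 on the plus strand, the third at chr1:110339127-110339322 on the plus strand and the last at chr1:28736374-28736623 on the plus strand. The RBM15 run leaves out the 54 bases next to the RefSeq start, because RBM15 transcripts of GENCODE begin there, upstream of that start.

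METTL3: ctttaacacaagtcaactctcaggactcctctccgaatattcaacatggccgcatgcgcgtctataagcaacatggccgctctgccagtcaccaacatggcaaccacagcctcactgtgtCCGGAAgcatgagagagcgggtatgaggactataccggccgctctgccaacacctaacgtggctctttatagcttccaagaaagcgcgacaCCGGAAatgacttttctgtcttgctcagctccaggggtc
METTL14: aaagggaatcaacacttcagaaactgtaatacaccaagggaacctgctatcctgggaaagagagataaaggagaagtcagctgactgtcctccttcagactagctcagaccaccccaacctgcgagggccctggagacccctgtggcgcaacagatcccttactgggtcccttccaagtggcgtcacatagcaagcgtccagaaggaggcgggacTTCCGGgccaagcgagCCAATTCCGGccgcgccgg
RBM15: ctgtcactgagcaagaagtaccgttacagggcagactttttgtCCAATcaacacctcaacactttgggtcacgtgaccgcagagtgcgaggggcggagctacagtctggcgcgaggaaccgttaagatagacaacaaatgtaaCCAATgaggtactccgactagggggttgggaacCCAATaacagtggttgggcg
YTHDF2: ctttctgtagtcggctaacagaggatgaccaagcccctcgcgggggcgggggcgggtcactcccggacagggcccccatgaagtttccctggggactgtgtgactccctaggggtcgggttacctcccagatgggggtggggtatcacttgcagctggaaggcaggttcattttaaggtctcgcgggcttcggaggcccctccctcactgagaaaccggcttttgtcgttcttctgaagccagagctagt

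Counting bases back from -1 at the last base before the annotated start, METTL3 held CCGGAA from -130 to -125 and from -39 to -34. METTL14 held the same letters on the other strand from -35 to -30 and from -15 to -10, and the last of these shared 1 base with a CCAAT that ran from -19 to -15. At least 2 matches to CCGGAA on either strand were present in 3.17% of all 35116 windows of 250 bases in the RefSeq promoter table, and at least 1 in 14.5%. RBM15 had no CCGGAA, but its full window of 250 bases held 4 CCAAT boxes, 3 of them in the run shown, and 0.874% of all windows held 4 or more. YTHDF2 had neither in the window shown, but its other window (chr1:28736690-28736939), not shown, held CCAAT from -203 to -199. The promoter table matched 9 of the 10 members with 11 windows, and VIRMA was not matched. Over these windows CCGGAA was present in 3, CCAAT in 5 (32% of all windows), the GC box GGGCGG or CCGCCC in 7 (42.6%) and TATAAA or TTTATA in 1 (10.7%). The TEAD letters CATTCC or GGAATG (11.9% of all windows) and the forkhead letters TGTTTA or TAAACA (11%) were present in 0 of the 11. The FOXD3 sites that the study predicted for METTL3 lie further upstream than these windows of 250 bases reach. That region was not searched here. A match is a description of these letters only.

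KIF26B itself was barely expressed and its RNA separated the libraries poorly. It stood at 0.110 and 0.205 FPKM in the controls (31 and 73 reads), at 0.140 FPKM (43 reads) in the library labelled KIF26B siRNA replicate 1 and at 0.0307 FPKM (8 reads) in the library labelled KIF26B siRNA replicate 2. Replicate 2 therefore lay below both controls, at 0.189 times their pooled read rate (exact 95% counting interval 0.0793 to 0.386), whereas replicate 1 lay between them, at 0.857 times (0.586 to 1.23). Directions that rest on the library labelled KIF26B siRNA replicate 1 therefore come from a library in which the targeted RNA was not detectably lower, and the log2 difference of each member without it is given below. The reads recovered from the FPKM steps numbered 18770701 to 24307127 a library, beside depths of 18068934 to 24673739 in the FPKM scaling. The 5 epithelial markers EPCAM, KRT8, KRT18, KRT19 and CDH1 summed to 1560 to 1692 FPKM in every library. Among them KRT8 (482 and 485 FPKM in the controls, 350 and 369 in the libraries labelled KIF26B siRNA) and KRT18 (243 and 245, then 168 and 175) were lower at an unadjusted limma p below 0.05, with log2 differences of -0.43 and -0.51 and adjusted p of 0.25 and 0.24. CDH1 also lay below both controls in both libraries (log2 difference -0.33), KRT19 above (0.14), and EPCAM overlapped. Of the markers of other cells, the T cell marker CD3E was listed at 0 in all 4, the leukocyte marker PTPRC reached 0.0278 FPKM at most and the fibroblast collagen COL3A1 0.0163 FPKM. COL1A1 ran from 4.74 to 8.69 FPKM and overlapped between the groups. ACTA2 stood at 0.599 and 0.633 FPKM in the controls and at 1.34 and 2.25 FPKM in the libraries labelled KIF26B siRNA. It was thus above both controls in both (log2 difference 0.77, limma unadjusted p = 0.0181, adjusted p = 0.25). The part of KRT8, KRT18, CDH1, COL1A1 and ACTA2 in the results was not tested.

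In the control libraries the eraser ALKBH5 was the most abundant member at 38.1 ± 0.659 FPKM (SD, n = 2), above 93.3% of the 14523 genes tested. The readers YTHDF1 (22.98 ± 0.199 FPKM) and YTHDF2 (21.9 ± 0.182 FPKM) came next. The writer subunits followed, in the order RBM15 (12.4 ± 0.670), VIRMA (11.1 ± 0.105), METTL3 (9.93 ± 0.338), ZC3H13 (9.51 ± 0.0172), WTAP (9.28 ± 0.371) and METTL14 (6.59 ± 0.363 FPKM). FTO was the lowest at 1.69 ± 0.0749 FPKM, above 16% of the genes tested. The only neighbours in this order whose control values overlapped were ZC3H13 and WTAP. FTO also had the fewest control reads of the members (731 and 863), and the authors' files spread them over 21379 bases, against 3190 to 10771 bases for the other members. The controls were close to each other throughout, no member being more than 1.08 times apart.

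No member passed the test between the groups. At an unadjusted p below 0.05 in limma, 0 of 10 members were lower, where 8.68% of all genes tested were, and 0 of 10 were higher, where 7.74% were. In either direction the share of all genes was 16.4%, and after Benjamini-Hochberg adjustment over all 14523 genes the share was 0%. The adjusted p of the members ran from 0.31 for ALKBH5 to 0.92 for RBM15. On reads recovered from the FPKM steps, limma-voom called 2 of 10 members at an unadjusted p below 0.05 (FTO higher, ALKBH5 lower), where 17.9% of all genes were called, and 0 after adjustment. The median log2 difference of the members was -0.10, against -0.01 over all genes tested, with 7 of 10 members below 0. Both libraries labelled KIF26B siRNA lay below both controls for 5 of 10 members (27.8% of all genes) and above both for 1 of 10 (24.9%). The share without overlap in either direction, 6 of 10, stood beside 52.6% of all genes.

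METTL3 (ENSG00000165819, chr14:21498138-21511340 in GRCh38.p14) was at 10.2 and 9.70 FPKM in the controls, 10.1 FPKM in the library labelled KIF26B siRNA replicate 1 and 15.5 FPKM in the library labelled KIF26B siRNA replicate 2. Replicate 1 thus lay between the controls and replicate 2 above all other libraries, and the groups overlapped. In reads, replicate 2 held METTL3 at 1.56 times the pooled control rate (exact 95% counting interval 1.47 to 1.66) and replicate 1 at 1.02 times (0.956 to 1.09). Counting intervals cover counting error only, not the difference between cultures. The group difference on the log2(FPKM + 1) scale was 0.31 with a standard error of 0.23 (95% interval -0.32 to 0.94, limma adjusted p = 0.54). It was 0.59 (adjusted p = 0.0478) without replicate 1 and 0.03 without replicate 2. In each of those fits the lone library labelled KIF26B siRNA is assumed to vary as the controls do, and 46.6% and 39.9% of all genes then passed an unadjusted p of 0.05. METTL3 shares 388 of 5863 annotated exon bases with TOX4 on the opposite strand, and reads there cannot be told apart where counting ignores strand. TOX4 ran from 7.39 to 9.55 FPKM.

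METTL14 (ENSG00000145388, chr4:118685392-118715430), the partner of METTL3, was at 6.33 and 6.85 FPKM in the controls and at 6.08 and 5.23 FPKM in the libraries labelled KIF26B siRNA replicates 1 and 2. Both of the latter lay below both controls, and replicate 2, where METTL3 was highest, was the lowest. The log2 difference was -0.19 with a standard error of 0.13 (limma adjusted p = 0.51). It was -0.28 without replicate 1 and -0.10 without replicate 2. The ratio of METTL3 to METTL14 FPKM within a library was 1.61 and 1.42 in the controls, 1.67 in replicate 1 and 2.96 in replicate 2. The dimer's RNAs were thus furthest from each other in the library labelled KIF26B siRNA replicate 2.

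The regulatory subunits lay closer to the controls. WTAP (ENSG00000146457, chr6:159726693-159756319), the adaptor that ties the dimer to the rest, had 9.02 and 9.54 FPKM in the controls, 9.92 in replicate 1 and 7.63 in replicate 2. Its libraries labelled KIF26B siRNA fell on either side of the controls, and the log2 difference of -0.08 (standard error 0.16, limma adjusted p = 0.82) turned to 0.09 without replicate 2 and was -0.25 without replicate 1. WTAP shares 437 of 6413 exon bases with SOD2 on the opposite strand. VIRMA (ENSG00000164944), the large scaffold, stayed between 10.7 and 11.2 FPKM in all 4 libraries, a log2 difference of -0.03 (95% interval -0.33 to 0.27). It was -0.05 without replicate 1 and -0.01 without replicate 2. VIRMA counted among the members below both controls, though replicate 1 (11.03 FPKM) lay barely under control replicate 1 (11.05 FPKM). The read rate of VIRMA in replicate 1 was 0.991 times the pooled controls (0.945 to 1.04). ZC3H13 (ENSG00000123200, chr13:45954465-46052746), which anchors the complex in the nucleus, had 9.50 and 9.52 FPKM in the controls and 8.95 and 8.27 FPKM in the libraries labelled KIF26B siRNA. Both were below both controls, with a log2 difference of -0.13 (95% interval -0.45 to 0.18, limma adjusted p = 0.60), which was -0.18 without replicate 1 and -0.08 without replicate 2.

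RBM15 (ENSG00000162775, chr1:110339377-110346677), the adaptor that brings the complex to RNA, was the member in which the libraries labelled KIF26B siRNA were furthest from each other. It stood at 12.9 and 11.9 FPKM in the controls, at 6.58 FPKM in replicate 1 and at 19.2 FPKM in replicate 2. The former was the lowest and the latter the highest of the 4 libraries, 2.92 times apart. Against the pooled controls the read rate was 0.533 times (0.488 to 0.581) in replicate 1 and 1.56 times (1.46 to 1.66) in replicate 2, from 656 and 1622 reads. The group difference of -0.11 (standard error 0.51, limma adjusted p = 0.92) averages these, and it was 0.59 without replicate 1 and -0.82 without replicate 2. As a description of these libraries, 3.31% of all genes tested had libraries labelled KIF26B siRNA at least as far apart as RBM15 did, and 26.4% at least as far apart as METTL3. RBM15 shares 175 of 4670 exon bases with its antisense RNA RBM15-AS1, which reached 0.217 FPKM.

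At least 1.5 times lay between the libraries labelled KIF26B siRNA for 2 of 10 members, METTL3 and RBM15, where 28% of all genes were that far apart. Between the controls the count was 0 of 10, where 7.3% of all genes were. The median member differed 1.16 times between the libraries labelled KIF26B siRNA and 1.04 times between the controls, and the median of all genes tested was 1.27 and 1.06 times.

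**Figure D1:**
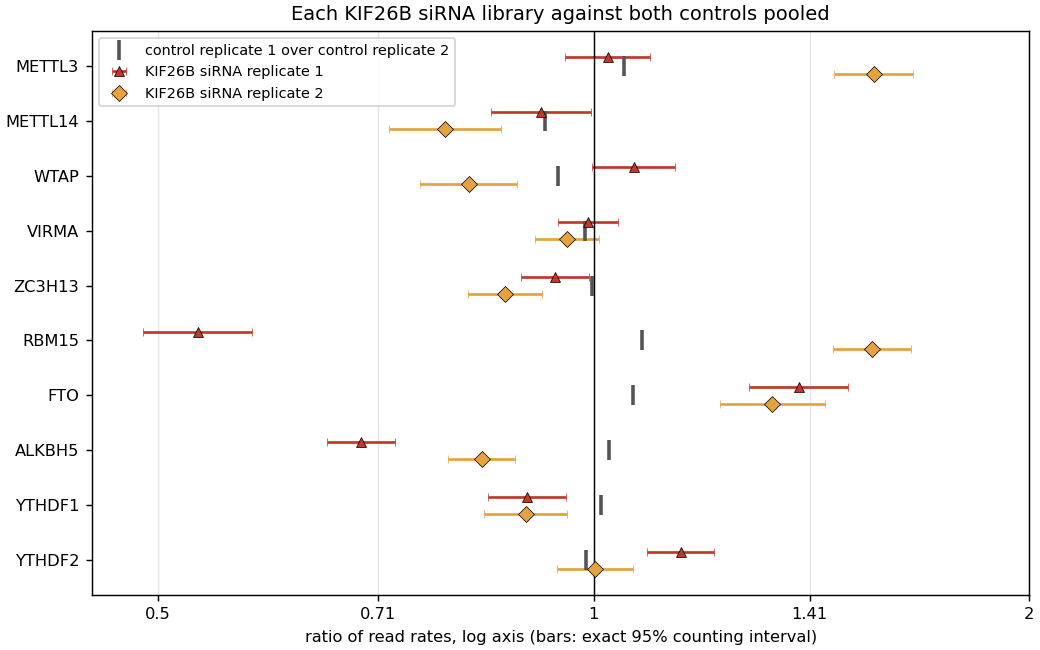
Ratio of read rates (log axis) of each library labelled KIF26B siRNA to both controls pooled, with exact 95% counting intervals as bars, for the 10 members, and the ratio of control replicate 1 to control replicate 2 as a grey tick. METTL3 is at 1.02 and 1.56 and RBM15 at 0.533 and 1.56, while both libraries lie right of 1 for FTO and left of 1 for ALKBH5.

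RBM15B, the paralog that takes the same place in the complex, is named here because of its values. It had 7.41 and 6.62 FPKM in the controls, 11.9 in replicate 1 and 6.28 in replicate 2, so it was highest where RBM15 was lowest. Within a library, RBM15 was 1.74 and 1.80 times RBM15B in the controls, 0.551 times in replicate 1 and 3.06 times in replicate 2. RBM15 had the higher FPKM in every library other than replicate 1, where the order was turned round. The log2 difference of RBM15B between the groups was 0.28 (standard error 0.32, limma adjusted p = 0.69). RBM15B shares 1325 of 6624 exon bases with DCAF1 on the opposite strand, which ran from 8.33 to 10.1 FPKM.

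The erasers lay on opposite sides of the controls. FTO (ENSG00000140718, chr16:53703963-54121941), the first m6A demethylase described, had 1.74 and 1.64 FPKM in the controls and 2.33 and 2.24 FPKM in the libraries labelled KIF26B siRNA. Both of the latter were above both controls, at 1.39 times (1.28 to 1.498) and 1.33 times (1.22 to 1.44) the pooled control read rate. The log2 difference was 0.29 with a standard error of 0.11 (95% interval -0.02 to 0.59, limma adjusted p = 0.31). At this level the added 1 FPKM shrinks a difference, and it was 0.41 with 0.1 FPKM added and 0.44 by limma-voom. It passed an unadjusted p of 0.05 in both, with adjusted p of 0.30 in limma and 0.21 in limma-voom. With replicate 1 or replicate 2 left out it was 0.27 and 0.31, and with control replicate 1 or control replicate 2 left out 0.32 and 0.26. Each of those fits leaves 1 library in a group, so only the sizes are given.

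ALKBH5 (ENSG00000091542, chr17:18183828-18209954), the nuclear demethylase, had 38.6 and 37.7 FPKM in the controls, 26.3 in replicate 1 and 31.9 in replicate 2. Both libraries labelled KIF26B siRNA were below both controls, at 0.691 times (0.655 to 0.729) and 0.837 times (0.793 to 0.882) the pooled control read rate. The log2 difference of -0.39 (standard error 0.14, 95% interval -0.78 to 0.01) had a limma adjusted p of 0.31. It was -0.25 without replicate 1, -0.52 without replicate 2, -0.37 without control replicate 1 and -0.40 without control replicate 2. By limma-voom it was -0.40 (unadjusted p = 0.0333, adjusted p = 0.24), and with a replicate block the unadjusted limma p was 0.0991. FTO stood at 0.0451 and 0.0434 times ALKBH5 in the controls and at 0.0886 and 0.0702 times in replicates 1 and 2, so both libraries labelled KIF26B siRNA held the higher ratio. ALKBH5 shares 357 of 3601 exon bases with a long noncoding RNA on the opposite strand, which reached 0.243 FPKM.

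Of the readers, YTHDF1 (ENSG00000149658, chr20:63195429-63216131), known for aiding translation of the mRNAs it binds, had 23.1 and 22.8 FPKM in the controls and 20.7 and 20.6 FPKM in the libraries labelled KIF26B siRNA. The groups did not overlap, the libraries labelled KIF26B siRNA were only 1.003 times apart, and the log2 difference was -0.15 (standard error 0.11, 95% interval -0.45 to 0.15, limma adjusted p = 0.53), and also -0.15 without either replicate 1 or replicate 2. YTHDF2 (ENSG00000198492, chr1:28736624-28769775) had 21.8 and 22.0 FPKM in the controls, 25.1 FPKM in replicate 1 and 21.9 FPKM in replicate 2. Replicate 1 was the highest of the 4 and replicate 2 lay between the controls, the reverse of METTL3. The log2 difference of YTHDF2 was 0.10 (95% interval -0.25 to 0.45, limma adjusted p = 0.72), and it was 0.0037 without replicate 1 and 0.19 without replicate 2. The ratio of YTHDF2 to YTHDF1 was 0.941 and 0.964 in the controls and 1.22 and 1.06 in replicates 1 and 2, so YTHDF2 passed YTHDF1 in both libraries labelled KIF26B siRNA. YTHDF2 shares 920 of 3729 exon bases with a long noncoding RNA on the opposite strand that has no value here.

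METTL3 and YTHDF2 were set beside the other genes by the distance between their log2(FPKM + 1) values, centred over the 4 libraries, among the 4649 genes averaging 10 FPKM or more. The closest to METTL3 were GGA1 (distance 0.0155), RLIM (0.0413) and VCP (0.0445). GGA1, an adaptor of Golgi transport, was at 11.7 and 11.1 FPKM in the controls, 11.5 in replicate 1 and 17.6 in replicate 2, and VCP, a segregase that feeds the proteasome, at 48.0, 47.1, 46.9 and 71.3. The closest to YTHDF2 were SSR4 (0.0131), POLDIP2 (0.0232) and PPAT (0.0241). Such matches were common over 4 libraries: within a distance of 0.1 lay 27 genes for METTL3 and 147 for YTHDF2. SSR4, a subunit of the translocon-associated complex, was at 15.8, 16.2, 18.4 and 16.1 FPKM in the same order.

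Of 34 further genes of the pathway in 4 lists, 33 passed the filter, and IGF2BP1, an mRNA-stabilising reader, was under it at 0.182 to 0.195 FPKM. At an unadjusted p below 0.05 in limma, 1 of 33 was lower and 2 were higher, beside the 8.68% and 7.74% of all genes, and 0 passed after adjustment. Both libraries labelled KIF26B siRNA lay below both controls for 15 of 33 and above for 4, beside 27.8% and 24.9% of all genes. The median log2 difference of the 33 was -0.07.

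Among the 4 genes of the methyl donor cycle, which makes S-adenosylmethionine for METTL3 and clears the product, 2 were past an unadjusted p of 0.05, where 16.4% of all genes were. MAT2A, the enzyme that makes S-adenosylmethionine, had 60.7 and 60.3 FPKM in the controls, 95.2 in replicate 1 and 114 in replicate 2. Both were far above both controls, with a log2 difference of 0.77 and a standard error of 0.14 (95% interval 0.38 to 1.16, limma adjusted p = 0.24). AHCY, which hydrolyses the S-adenosylhomocysteine left by each methyl transfer, had 59.9 and 58.4 FPKM in the controls and 97.8 and 81.7 FPKM in the libraries labelled KIF26B siRNA. These too were above both controls, with a log2 difference of 0.59 and a standard error of 0.14 (limma adjusted p = 0.25). The other 2, MAT2B and AHCYL1, overlapped between the groups. MAT2B, which regulates MAT2A, had 12.3 and 12.6 FPKM in the controls, 12.8 in replicate 1 and 7.89 in replicate 2. MAT2A shares 562 of 4485 exon bases with GGCX on the opposite strand, which was at 4.15 to 5.71 FPKM.

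The other writers gave 0 of 7 at an unadjusted p below 0.05, where 16.4% of all genes passed. Their log2 differences ran from -0.25 for ZCCHC4, which methylates 28S rRNA, to 0.28 for RBM15B. METTL16, which methylates MAT2A mRNA and U6 snRNA, was at 5.29 and 5.28 FPKM in the controls and 6.55 and 6.02 FPKM in the libraries labelled KIF26B siRNA, above both controls, with a log2 difference of 0.21 (limma adjusted p = 0.42). CBLL1, a subunit of the writer complex, was at 7.94, 7.85, 7.48 and 6.97 FPKM, below both controls, with a log2 difference of -0.11 (limma adjusted p = 0.65).

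The other readers gave 0 of 13 at that threshold, where 16.4% of all genes passed, with a median log2 difference of -0.09. Both libraries labelled KIF26B siRNA were below both controls for 8 of 13, where 27.8% of all genes were. They were above both for 1 of 13, FXR2, where 24.9% of all genes were. YTHDF3, the third cytoplasmic YTHDF reader, had 14.4 and 15.1 FPKM in the controls and 12.8 and 10.1 FPKM in the libraries labelled KIF26B siRNA (log2 difference -0.34, limma adjusted p = 0.37). FMR1, an RNA-binding protein that can read m6A, had 7.29 and 7.30 FPKM in the controls, 4.34 in replicate 1 and 6.07 in replicate 2 (log2 difference -0.43, limma adjusted p = 0.34). ELAVL1, which stabilises mRNA, had 20.01 and 20.4 FPKM in the controls and 16.4 and 16.1 FPKM in the libraries labelled KIF26B siRNA (log2 difference -0.30, limma adjusted p = 0.30). For all 3 the libraries labelled KIF26B siRNA were below both controls. FXR2 had 17.1 and 16.9 FPKM in the controls, 18.7 in replicate 1 and 24.3 in replicate 2 (log2 difference 0.31, limma adjusted p = 0.42). YTHDF3, FMR1, ELAVL1, FXR2, MAT2B, AHCYL1, ZCCHC4, METTL16 and CBLL1 were named because of their values.

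The decay factors through which YTHDF2 acts, the CCR4-NOT deadenylase, UPF1 and the RIDA and RNase P/MRP arm, gave 1 of 9 at an unadjusted p below 0.05, beside the same 16.4%. RPP30, a protein subunit of RNase P, had 8.63 and 7.85 FPKM in the controls and 5.97 and 6.23 FPKM in the libraries labelled KIF26B siRNA, both below both controls (log2 difference -0.38, standard error 0.12, limma adjusted p = 0.28). With control replicate 1 or control replicate 2 left out, neither it nor MAT2A or AHCY was past an unadjusted p of 0.05, at log2 differences of -0.32 and -0.44 for RPP30, 0.78 and 0.77 for MAT2A, and 0.60 and 0.57 for AHCY. Without KIF26B siRNA replicate 1 the values were -0.35 for RPP30, 0.90 for MAT2A and 0.46 for AHCY, with limma adjusted p of 0.0895, 0.0463 and 0.0498, in the fit where 46.6% of all genes passed an unadjusted p of 0.05. Without KIF26B siRNA replicate 2 they were -0.41, 0.65 and 0.71. POP1, another subunit, also named because of its values, had 6.86 and 6.96 FPKM in the controls, 13.0 in replicate 1 and 4.004 in replicate 2, 3.25 times apart. Of CCR4-NOT, the scaffold CNOT1 and the subunits CNOT6 and CNOT8 were below both controls in both libraries labelled KIF26B siRNA, and CNOT6L and CNOT7 overlapped, where 27.8% of all genes were below. These are all 5 of its subunits in the list.

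The other factors that the study placed around METTL3 were measured too. FOXD3, a forkhead factor, was listed at 0.147 and 0.117 FPKM in the controls, 0 in replicate 1 and 0.186 in replicate 2, from 7 reads or fewer in every library, and a difference was not detectable at this depth. YAP1, the effector of the Hippo pathway, was at 19.95 and 20.1 FPKM in the controls, 31.4 in replicate 1 and 22.9 in replicate 2, above both controls (log2 difference 0.40, standard error 0.19, limma adjusted p = 0.38). It was 0.18 without replicate 1 and 0.62 without replicate 2.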

How the data were processed

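RNA from 4 HCT116 libraries, 2 of each group, was sequenced and the authors deposited FPKM values per Ensembl gene, with no counts. The submitters' processing notes name HISAT2 2.0.5 and featureCounts 1.5.0-p3, and the sources differ on the build (hg38 in those notes, hg19 in the methods), so values were joined by Ensembl ID, and symbols came from GENCODE on GRCh37 (56513 of 58735 IDs matched). Coordinates are those of RefSeq on GRCh38.p14. Genes averaging 1 FPKM or more over the libraries were tested on log2(FPKM + 1) with limma 3.58.1 in R 4.3.3 (2 residual and 2 prior degrees of freedom, two-sided), with Benjamini-Hochberg adjustment over 14523 genes. Exact permutation of 2 against 2 libraries cannot go below p = 0.333 and was not used. Each gene's FPKM values are multiples of what 1 read is worth, and whole reads were recovered for 34637 of 34638 genes above 0, within 0.01 of a read. They gave the read rates, with exact (Clopper-Pearson) 95% intervals of the ratio, and the limma-voom fit. The library divisors came from single-exon genes, 90.9% to 91.3% of which gave whole reads at the annotated length. In data simulated for this comparison (14523 genes), limma called 98 of 100 genes given a log2 change of 1 at an unadjusted p below 0.05 and 53 after adjustment, and 99 of 100 given a log2 change of 2 after adjustment. The simulation gave every gene in both groups the same dispersion (0.011). In the data the median gene was 1.27 times apart between the libraries labelled KIF26B siRNA and 1.06 times between the controls. The simulation did not copy this wider spread of 1 group. The simulated shares therefore do not carry over to the typical gene here, and still less to genes as spread as RBM15.

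The text names the 10 members, KIF26B, FOXD3 and YAP1, up to 8 further m6A genes at an unadjusted p below 0.05, and the 3 genes closest to METTL3 and to YTHDF2. For other genes of the pathway the text says that their values led to their being named, or names all of a set. The members and lists were chosen with earlier results of these data known. PECAM1, among the markers of other cells, was not matched. The alternatives were a replicate block, 0.1 FPKM added, no filter, median-of-ratios scaling, limma-voom and leaving out each library.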

Additional observations from a re-analysis of the deposited data

How the results depend on the processing

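With all 4 libraries, the log2 differences of the 10 members kept their direction in 50 of 50 values over 5 alternatives. The replicate block and leaving off the filter cannot change a log2 difference here, so their values agree by design. Only adding 0.1 FPKM, median-of-ratios scaling and limma-voom could have turned a direction. At an unadjusted p below 0.05, 0 members were lower and 0 higher in limma as reported. Adding 0.1 FPKM gave 1 higher (FTO), where 15.6% of all genes passed in either direction. Without the filter, 1 was lower (ALKBH5) and 1 higher (FTO), and 3 further m6A genes were lower, where 12.6% of all genes passed. With limma-voom, 1 was lower, 1 higher and 4 further genes lower, where 17.9% of all genes passed. The labels share replicate numbers, but same-numbered libraries did not deviate together (correlation -0.00314). The replicate block gave 0 members in either direction and 0 further genes lower in place of 1, where 11.9% of all genes passed.

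Leaving out 1 library gave 0 to 3 members lower, 0 to 3 higher, 0 to 10 further genes lower and 0 to 8 higher, and 499 to 6761 of 14523 genes past an unadjusted p of 0.05, against 2385. Only 1 residual degree of freedom is left there. After adjustment, 2507 genes passed without KIF26B siRNA replicate 1 and 0 without any other library. The log2 difference ran from -0.252 to 0.0885 for WTAP and from -0.82 to 0.59 for RBM15, and the members' median from -0.10 to -0.05; the causes were not tested. With 2 libraries a group, and 8 to 73 reads for KIF26B, depth limits the check of the target rather than the members, which had 648 to 2977 reads each.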
